A study of Mus musculus with 19 samples.

Results

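The MS4A family was examined in retinal microglia by selecting the rows of the deposited gene table whose symbol was 1 of 8 mouse MS4A genes, *Ms4a4a*, *Ms4a4b*, *Ms4a4c*, *Ms4a6b*, *Ms4a6c*, *Ms4a6d*, *Ms4a7* and *Ms4a14*. All 8 members were found among the 27299 genes of the table. The cells were sorted as CD45+CD11b+CX3CR1+Ly6C-Ly6G- from mouse retinas and measured by bulk RNA-seq, in 6 control samples without laser treatment and in 6 samples taken on day 3 after 6 laser burns per eye. The laser breaks the membrane under the retina and induces choroidal neovascularization (CNV), so the second group is called CNV d3. The labels give C57BL/6J mice and an age of 8 weeks for both groups. The methods of the study describe *Cx3cr1* GFP/+ mice, in which GFP is placed in the *Cx3cr1* gene, and a gate low for CD45. No label says that replicates came from separate animals, so that p-values measure the spread between these samples, which may be technical. In bulk samples, fewer cells of a type and less RNA per cell cannot be told apart.

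MS4A proteins are small membrane proteins that cross the cell membrane several times and have both ends inside the cell. The best known relatives are MS4A1 (CD20) of B cells and MS4A2, the beta chain of the IgE receptor of mast cells, and other members sit in the membrane beside immune receptors and modulate their signal. In myeloid cells, MS4A4A is found with the beta-glucan receptor Dectin-1, encoded by *Clec7a*, and the human MS4A cluster is linked to the level of soluble TREM2 and to Alzheimer's disease. In the mouse brain, *Ms4a7* is used to tell macrophages at the borders of the tissue from microglia.

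All members lie on chromosome 19 (GRCm38), between position 11301249 at *Ms4a14* and position 11604849 at *Ms4a6d*. The order along the chromosome is *Ms4a14*, *Ms4a7*, *Ms4a4a*, *Ms4a4c*, *Ms4a4b*, *Ms4a6c*, *Ms4a6b* and *Ms4a6d*. *Ms4a14*, *Ms4a7* and *Ms4a6d* are on the minus strand and the other genes on the plus strand. The first 60 coding bases of the *Ms4a6* genes are shown because these close copies differed in their response to laser, and capitals mark bases that differ from *Ms4a6c*. All stretches are exonic and coding, in the longest protein-coding transcript of Gencode on GRCm38.
Ms4a6c (chr19:11471105-11471164, plus strand): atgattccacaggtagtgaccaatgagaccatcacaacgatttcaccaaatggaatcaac
Ms4a6b (chr19:11520339-11520398, plus strand): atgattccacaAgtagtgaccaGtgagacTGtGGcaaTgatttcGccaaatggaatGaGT
Ms4a6d (chr19:11603233-11603292, minus strand): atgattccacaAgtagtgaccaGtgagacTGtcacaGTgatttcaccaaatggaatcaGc
*Ms4a6b* differed from *Ms4a6c* at 11 of these 60 bases and *Ms4a6d* differed at 7. Over the aligned coding sequence, identity to *Ms4a6c* was 86.4% of 641 bases for *Ms4a6b* and 79.6% of 637 bases for *Ms4a6d*. The longest identical stretch between *Ms4a6b* and *Ms4a6c* was 55 bases.

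The *Ms4a4* genes are shown in the same way because *Ms4a4c* changed and its closest copy was nearly silent, with capitals at bases that differ from *Ms4a4c*.
Ms4a4c (chr19:11414817-11414876, plus strand): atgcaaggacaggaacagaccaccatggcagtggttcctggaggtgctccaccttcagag
Ms4a4b (chr19:11449919-11449978, plus strand): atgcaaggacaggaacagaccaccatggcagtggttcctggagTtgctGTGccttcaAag
*Ms4a4b* differed at 5 of these 60 bases and was 91.7% identical to *Ms4a4c* over 678 coding bases, with 1 identical stretch of 127 bases. *Ms4a4a* was more distant, with 68.8% of 645 aligned bases. The open reading frames held 217 codons in *Ms4a6c*, 226 in *Ms4a4c* and *Ms4a4b*, 236 in *Ms4a4a*, 244 in *Ms4a6b*, 247 in *Ms4a6d* and 267 in *Ms4a7*. *Ms4a14* was the exception, with 1232 codons.

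Reads were single and 50 cycles long, and those that map to several places were dropped in counting. Of all 50-base words in the transcripts of *Ms4a4c*, 7.73% also occurred in another member, while the share was 5.85% for *Ms4a6c*, 3.44% for *Ms4a6b* and 2.31% for *Ms4a6d*. No word of *Ms4a4a* or *Ms4a14* occurred in another gene. The overlap with an antisense gene was larger. *Ms4a6c* shares 1088 of its 2050 exon bases (53.1%) with *BE692007*, a transcript on the opposite strand at chr19:11470166-11484578. The library did not keep the strand and reads touching exons of both genes were dropped, so that 753 of the 1841 bases of the *Ms4a6c* transcript could be counted and reads of the 2 genes cannot be told apart there.

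In the 12 samples, between 10963178 and 29523018 reads fell on genes, with 10963178 to 22335233 in control and 23532260 to 29523018 in CNV d3. Values are given as normalized counts, which are reads divided by the size factor of the sample. A single read was worth 0.739 to 1.99 normalized counts, and 3 reads, taken as the smallest signal, were 2.22 to 5.96. The sorted cells carried the defining microglia genes. The summed level of 10 microglia markers was 1354510 to 1524980 in control and 754090 to 1135280 in CNV d3, and *P2ry12*, a purinergic receptor of resting microglia, was the only DEG among them (log2FC = -1.65, adjusted p = 1.01e-05 by limma). Markers of monocytes moved in the other direction. The 14 genes of this list summed to 1738 to 2633 in control and 7488 to 54365 in CNV d3, with 6 increased DEG and a median log2FC of 2.61, while the median over all genes was 0.15. *Ly6c2*, *Chil3* and *F10* were at 0 in all control samples, and their highest mean in CNV d3 was 16.8. The part of monocytes in the MS4A values was not tested.

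The question was which MS4A genes differed between retinal microglia of control and CNV d3. *Ms4a4c* and *Ms4a6c* increased, while *Ms4a6b*, *Ms4a6d*, *Ms4a7*, *Ms4a4a*, *Ms4a4b* and *Ms4a14* did not pass the test. A DEG was defined by an absolute log2FC above 1.5 and an adjusted p under 0.05 in limma, on log2(normalized counts + 1), with Benjamini-Hochberg adjustment over all 27299 genes. Of the 8 members, 1 was an increased DEG, where 3.91% of all genes were, and 0 were decreased DEG, where 1.07% of all genes were. Without a threshold on the fold, 2 of 8 members increased, against 8.29% of all genes, and 0 decreased, against 4.57%. The 0 decreased members had 0 with an unadjusted p under 0.05, and edgeR and DESeq2 called 0 as well. All CNV d3 samples were above all control samples for 1 member, against 4.64% of all genes, and below for 0 members, against 2.83%. With 8 genes, such counts give no statement on the family as a whole.

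**Figure D1:**
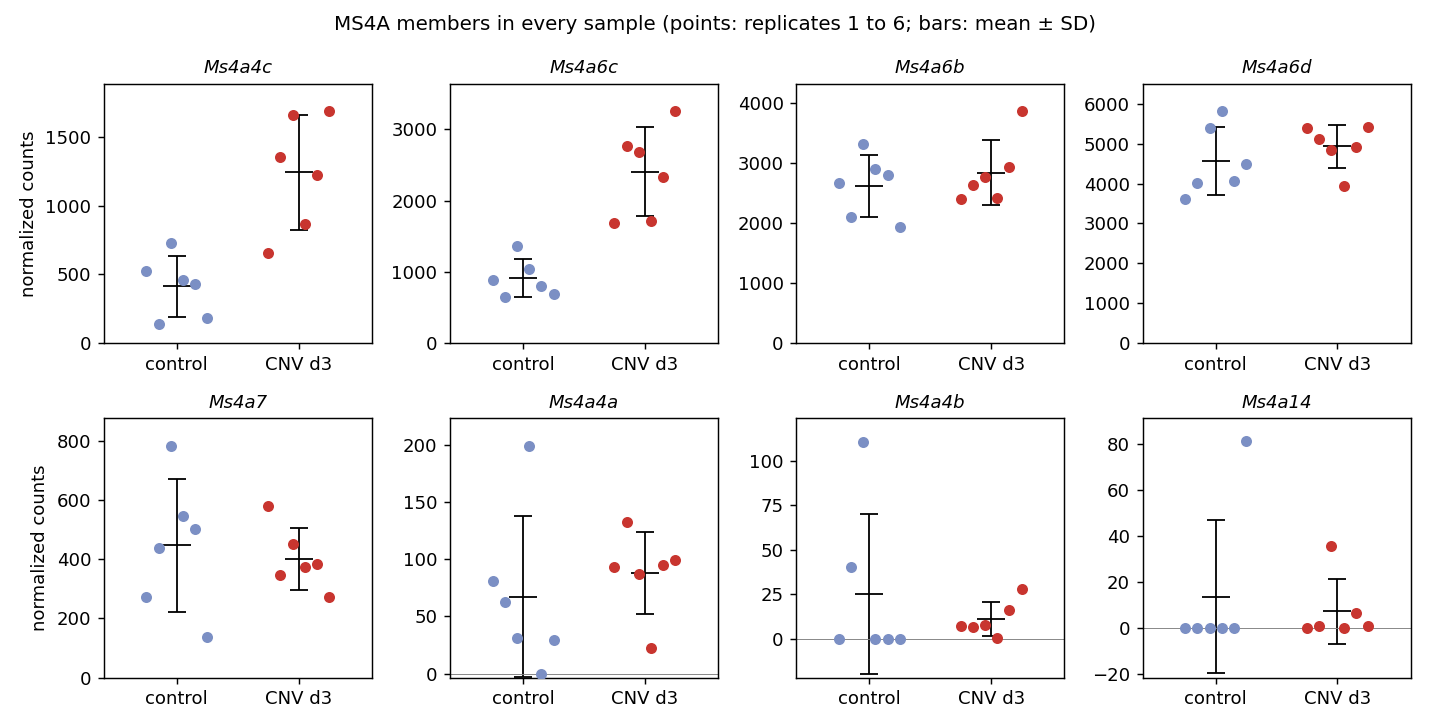
Normalized counts (linear axis) of the 8 members in control (blue) and CNV d3 (red), with 1 point per sample in the order of the replicates and bars for the mean ± SD (n = 6 per group). For *Ms4a6c* all CNV d3 points (1684 to 3253) are above all control points (650 to 1368), for *Ms4a4c* 5 of 6 are, and in the other panels the groups overlap.

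*Ms4a6c*, a member known from monocytes and macrophages, had 886.8, 649.9, 1368, 1039, 805.1 and 685.1 normalized counts in control replicates 1 to 6. In CNV d3 it had 1684, 2769, 2688, 1715, 2328 and 3253. The lowest CNV d3 sample, replicate 1, was above the highest control sample, replicate 3. The means were 906 ± 267 in control and 2406 ± 622 in CNV d3 (SD, n = 6), a ratio of 2.66. In limma the log2FC of *Ms4a6c* was 1.41 (SE 0.20, 95% CI 0.98 to 1.85, adjusted p = 0.00039), so that it passed the test and stayed under the fold threshold of a DEG. The exact permutation test over all ways to label 6 of 12 samples gave a two-sided p = 0.00216, the smallest possible value. Its fold crossed the threshold when control replicate 3 was left out (1.54), or CNV d3 replicate 1 (1.51) or replicate 4 (1.503).

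The antisense gene *BE692007* moved with *Ms4a6c*. It had 49.7 to 122.4 normalized counts in control and 148.5 to 328.4 in CNV d3, so that the groups did not overlap (log2FC = 1.56, SE 0.31, adjusted p = 0.00391 by limma). The counted reads of *Ms4a6c* and *BE692007* come from exon bases that the genes do not share, without knowledge of the strand. The part of *BE692007* in the result of *Ms4a6c* was not tested.

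*Ms4a6b*, a close copy of *Ms4a6c* described in T cells, had 2654, 2101, 3318, 2903, 2794 and 1922 normalized counts in control and 2394, 2627, 2763, 2416, 2922 and 3854 in CNV d3. The groups overlapped, apart from CNV d3 replicate 6, which was above the highest control. The means were 2615 ± 521 and 2829 ± 541 (SD, n = 6), and the log2FC of *Ms4a6b* was 0.12 (SE 0.15, 95% CI -0.20 to 0.44, adjusted p = 0.608 by limma).

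*Ms4a6d*, which forms a complex with the macrophage receptor VSIG4, had the most reads of all members. It had 3621, 4008, 5391, 5809, 4072 and 4482 normalized counts in control and 5389, 5114, 4845, 3929, 4908 and 5406 in CNV d3. All values of CNV d3 were within the range of control. The means of *Ms4a6d* were 4564 ± 858 and 4932 ± 544 (SD, n = 6), with a log2FC of 0.12 (SE 0.12, 95% CI -0.14 to 0.39, adjusted p = 0.563 by limma). The intervals of *Ms4a6b* and *Ms4a6d* leave out the change of *Ms4a6c*.

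The difference between these copies was then tested itself, as the log2 ratio of 2 genes within a sample. The log2 ratio of *Ms4a6b* to *Ms4a6c* was 1.55 ± 0.18 in control and 0.26 ± 0.24 in CNV d3 (SD, n = 6), a difference of -1.30. The lowest control ratio was 1.28 and the highest CNV d3 ratio 0.51, so that the groups did not overlap (exact permutation test, two-sided p = 0.00216, adjusted p = 0.00649 over the 6 pairs compared). The log2 ratio of *Ms4a6c* to *Ms4a6d* rose from -2.36 ± 0.30 to -1.07 ± 0.34, with the same exact p and adjusted p and again without overlap. The log2 ratio of *Ms4a6b* to *Ms4a6d* was -0.81 in both groups (exact permutation p = 0.965). Thus *Ms4a6c* separated from both other *Ms4a6* genes, and a difference between the other genes was not detectable.

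**Figure D2:**
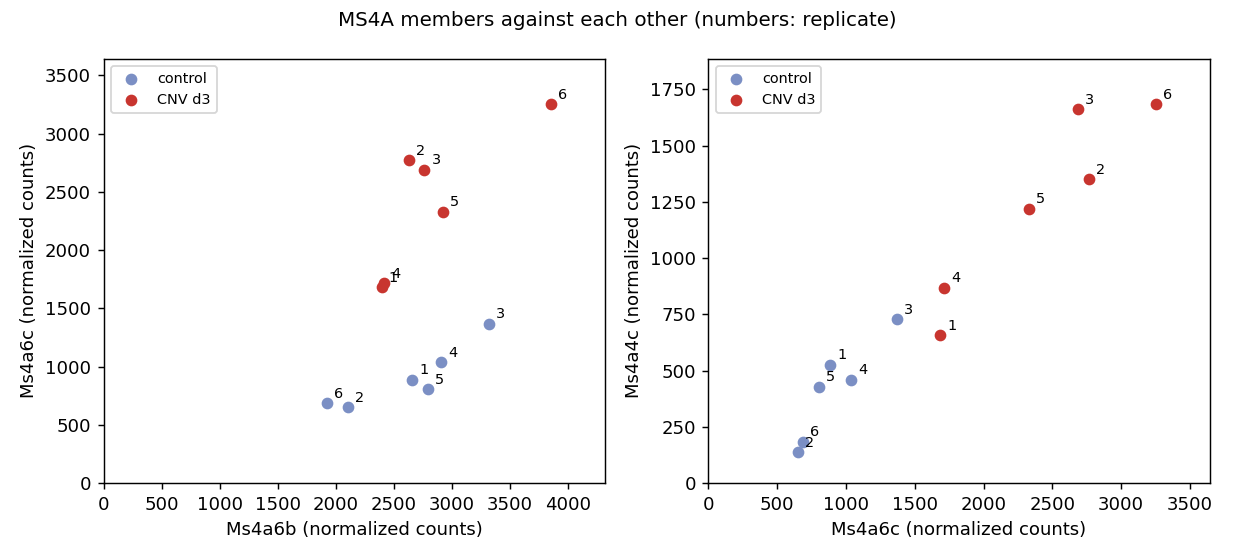
Normalized counts of *Ms4a6c* against *Ms4a6b* (left) and of *Ms4a4c* against *Ms4a6c* (right), with 1 point per sample numbered by replicate, control in blue and CNV d3 in red, on linear axes. On the left the groups share the range of *Ms4a6b* and are separated by height, as the log2 ratios of 1.55 and 0.26 describe, and on the right samples with more *Ms4a6c* mostly have more *Ms4a4c*, with exceptions such as control replicates 1 and 4 and CNV d3 replicates 2 and 3.

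*Ms4a4c*, which is listed among genes induced by interferon, had 526.0, 138.7, 729.6, 460.8, 428.6 and 184.7 normalized counts in control. In CNV d3 it had 657.5, 1352, 1663, 869.0, 1220 and 1686. Control replicate 3 was above CNV d3 replicate 1, and the other 5 CNV d3 samples were above all controls. The means were 411 ± 220 and 1241 ± 416 (SD, n = 6), a ratio of 3.02. *Ms4a4c* was the increased DEG of the family, with a log2FC of 1.73 (SE 0.38, 95% CI 0.93 to 2.54, adjusted p = 0.00667 by limma, exact permutation p = 0.00433). Without control replicate 2, its lowest sample, the log2FC of *Ms4a4c* was 1.46 (adjusted p = 0.0246 by limma), under the fold threshold.

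*Ms4a4a*, which in human macrophages is found with Dectin-1, was low in both groups. It had 80.5, 62.8, 31.5, 198.9, 0 and 29.8 normalized counts in control and 93.1, 132.1, 86.8, 22.5, 95.3 and 98.9 in CNV d3. Control held both the highest sample, replicate 4, and the lowest, replicate 5, in which no read was counted and 3 reads would be 3.01 normalized counts. The log2FC of *Ms4a4a* was 1.32 with a wide interval (SE 1.00, 95% CI -0.81 to 3.44, adjusted p = 0.458 by limma) and was 0.32 without control replicate 5. The means differed less, with 67.3 ± 70.3 and 88.1 ± 35.9 (SD, n = 6).

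*Ms4a4b*, known from T cells, was at 0 in control replicates 1, 4, 5 and 6, and at 40.5 and 110.3 normalized counts in replicates 2 and 3. In CNV d3 all samples held some reads, with values of 7.4, 6.7, 8.1, 0.9, 16.02 and 28.2. The mean was thus lower in CNV d3 (11.2 ± 9.65) than in control (25.1 ± 44.8), while the log2FC of *Ms4a4b* was 1.15 (SE 1.29, 95% CI -1.61 to 3.91, adjusted p = 0.604 by limma). On reads, edgeR gave -1.15 and DESeq2 -1.17, so that no direction can be given. The T cell list was low in the same samples, at 0 to 110 normalized counts in control and 14.0 to 73.6 in CNV d3 over 8 genes, with *Cd3d*, *Cd3g*, *Cd8a* and *Cd2* at 0 in all controls. Control replicate 3, the sample with the most *Ms4a4b*, had 0 for the whole list.

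The pairs of *Ms4a4* genes were not told apart in response. The difference in log2 ratio was -0.41 for *Ms4a4a* to *Ms4a4c*, -0.59 for *Ms4a4b* to *Ms4a4c* and 0.17 for *Ms4a4a* to *Ms4a4b*, and the exact permutation p was 0.779, 0.639 and 0.924 (adjusted p = 0.965 over 6 pairs for each). With SDs of up to 3.85 in control, these ratios could not show a difference of the size seen among the *Ms4a6* genes.

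*Ms4a7*, the marker of border macrophages, had 273.8, 439.4, 782.6, 545.0, 501.9 and 139.0 normalized counts in control and 579.9, 347.0, 451.9, 375.6, 383.7 and 272.5 in CNV d3. The controls spanned the whole range of CNV d3. The means were 447 ± 224 and 402 ± 105 (SD, n = 6), and the log2FC of *Ms4a7* was near 0 (SE 0.34, 95% CI -0.74 to 0.73, adjusted p = 0.998 by limma). The interval is wide enough to hold a change of 0.73 in either direction. The list of other border macrophage markers rose in sum, from 2222 to 4012 in control to 4187 to 6725 in CNV d3, with 3 increased DEG among the 9 genes found (*Cbr2*, *Folr2* and *Siglec1*). This count was 1 when control replicate 5 or CNV d3 replicate 1, 2, 3, 5 or 6 was left out. Most of the sum came from *Stab1* (means of 2058 in control and 3059 in CNV d3) and *Siglec1* (383 and 1812). *Mrc1*, the mannose receptor of border macrophages, had 350 ± 276 in control and 113 ± 81.1 in CNV d3 and did not pass the test (adjusted p = 0.233 by limma). The means of *Lyve1* (94.0 and 2.09) and *Pf4* (105 and 88.1) were lower in CNV d3 too, and the other means of the list were higher. *Lyve1* ranged from 0 to 564 in control and from 0 to 12.6 in CNV d3, and *Pf4* from 0 to 333 and from 74.4 to 102. Neither passed the test (adjusted p = 0.671 for *Lyve1* and 0.585 for *Pf4* by limma). The log2FC of *Pf4* was 0.94 although its mean was lower, so that no direction can be given for it.

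*Ms4a14*, whose human relative is known from the testis, was at 0 in 5 control samples and at 81.4 normalized counts (41 reads) in control replicate 6, the sample with the fewest reads. In CNV d3 the values were 0, 0.8, 35.8, 0, 6.4 and 0.8. A single sample held all reads of the gene in control and most of them in CNV d3, and the log2FC of *Ms4a14* (0.58, SE 1.17, adjusted p = 0.753 by limma) depends on the pseudocount.

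**Figure D3:**
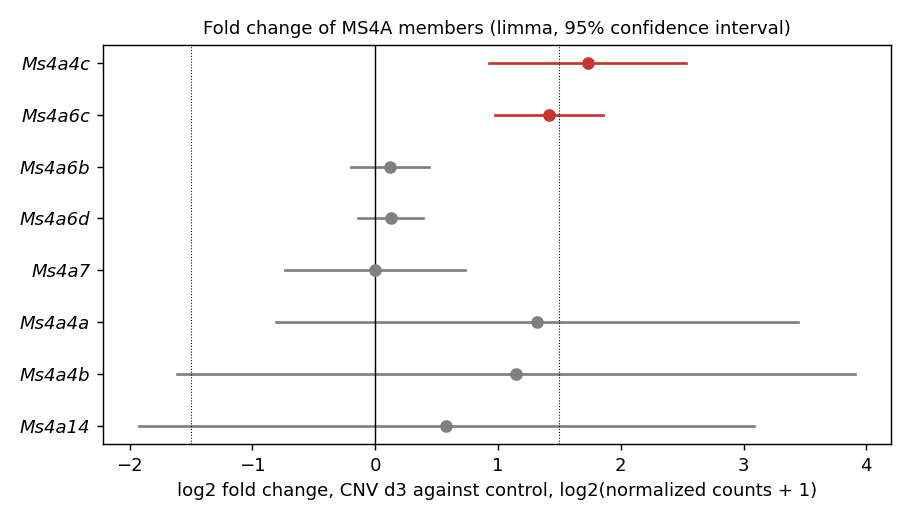
Log2FC of the 8 members, CNV d3 against control, on log2(normalized counts + 1) by limma, with bars for the 95% confidence interval, a solid line at 0 and dotted lines at the DEG threshold of 1.5 in both directions. Red marks the 2 members with an adjusted p under 0.05, *Ms4a4c* (1.73) and *Ms4a6c* (1.41), and the intervals of *Ms4a4a*, *Ms4a4b* and *Ms4a14* are the widest.

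Levels of different genes were compared per kb of the longest coding transcript, counting only bases not shared with another gene. On this scale *Ms4a6d* led in control (3219 ± 605 normalized counts per kb), followed by *Ms4a6c* (1203 ± 354), *Ms4a6b* (983 ± 196), *Ms4a7* (284 ± 142), *Ms4a4c* (239 ± 128), *Ms4a4a* (80.4 ± 84.1), *Ms4a4b* (5.29 ± 9.43) and *Ms4a14* (3.34 ± 8.18; SD, n = 6). Neighbours in this order were ordered alike in all 6 samples (exact paired permutation test, p = 0.03125, the smallest that 6 pairs allow), with 3 exceptions. *Ms4a7* was above *Ms4a4c* in 4 of 6 control samples (exact p = 0.5625), *Ms4a4a* above *Ms4a4b* in 5 of 6 (exact p = 0.0625) and *Ms4a4b* above *Ms4a14* in 2 of 6 (exact p = 0.75).

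In CNV d3, *Ms4a6d* (3478 ± 384 normalized counts per kb) and *Ms4a6c* (3195 ± 826) were not told apart, with *Ms4a6d* higher in 3 of 6 samples (exact paired permutation p = 0.375). *Ms4a6b* followed with 1063 ± 203 per kb and *Ms4a4c* with 720 ± 242, now above *Ms4a7* (255 ± 66.5) in all 6 samples. *Ms4a4a* had 105 ± 42.9 per kb, and *Ms4a4b* (2.36 ± 2.03) and *Ms4a14* (1.80 ± 3.48) were near 0. The places of *Ms4a6c* and *Ms4a7* depend on the length used. Per kb of all exons, overlapped bases included, *Ms4a6c* was below *Ms4a6b* in control (442 and 583) and below *Ms4a6d* in CNV d3 (1174 and 2843). By the same measure *Ms4a4c* (709) was above *Ms4a6b* (631) in CNV d3. *Ms4a4c* (235) was then above *Ms4a7* (100) already in control, and *Ms4a4a* (105) was above *Ms4a7* (90.2) in CNV d3.

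**Figure D4:**
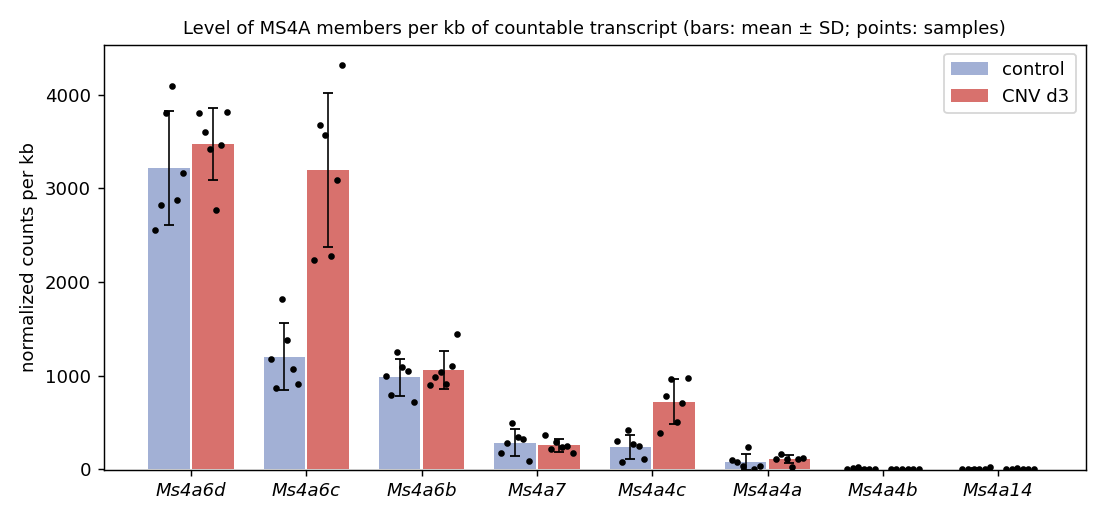
Normalized counts per kb of countable transcript for the 8 members in control (blue) and CNV d3 (red), with bars for the mean from 0, error bars for the SD and a point per sample (n = 6 per group). *Ms4a6c* rises from 1203 to 3195 per kb, to the height of *Ms4a6d* (3478), and *Ms4a4c* moves from the height of *Ms4a7* to above it. Both statements hold for this length only and change per kb of all exons.

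Summed over the members, the family had 9049 ± 1842 normalized counts in control and 11917 ± 1773 in CNV d3 (SD, n = 6), with ranges of 7440 to 11732 and 9328 to 14599 that overlapped. The share of *Ms4a6d* in this sum was 50.8% in control and 41.7% in CNV d3, and that of *Ms4a6b* was 29.0% and 23.7%. *Ms4a6c* took 9.90% and 19.95%, and *Ms4a4c* 4.38% and 10.2%. *Ms4a7* held 4.77% and 3.48%. These shares are of reads and not corrected for length.

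*Ms4a4c*, *Ms4a6b* and *Ms4a6c* varied together within groups. After the group mean was taken from each value, the deviations of *Ms4a4c* and *Ms4a6c* had a Pearson r of 0.88 over the 12 samples, those of *Ms4a6b* and *Ms4a6c* 0.86 and those of *Ms4a4c* and *Ms4a6b* 0.85. For *Ms4a6c* and *Ms4a6d* r was 0.57, and for *Ms4a6b* and *Ms4a6d* 0.45. The other pairs of members were between -0.58 (*Ms4a7* and *Ms4a14*) and 0.42 (*Ms4a4b* and *Ms4a7*), with 0.01 for *Ms4a4a* and *Ms4a4c*. *Ms4a6b* thus varied with the genes that increased, although its own group means were close. These samples share their scaling by 1 size factor per sample, and the correlations are descriptions without a test.

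The lowest CNV d3 samples were the same in several members and marker lists. *Ms4a4c* and *Ms4a6c* were lowest in CNV d3 replicates 1 and 4, and so was the summed monocyte list (7488 and 7667), which was between 15179 and 54365 in the other replicates and consisted mostly of *Fn1*, the gene of fibronectin. The border macrophage list was lowest in the same replicates (4460 and 4187). Dendritic cell markers (1143 and 690) and NK cell markers (65.0 and 0.866) were lowest in CNV d3 replicates 1 and 4 too, and microglia markers were highest there (1135280 and 1090250). In control, replicate 2 was the lowest sample of both *Ms4a4c* (138.7) and the monocyte list (1738). Other lists did not follow this order in control. Dendritic cell markers (889) and T cell markers (110) were highest in control replicate 2, and the border macrophage list was lowest in control replicate 5 (2222). *Ms4a6b* was also lowest in CNV d3 replicates 1 and 4 (2394 and 2416). Other members and lists did not follow this order in CNV d3. *Ms4a7* was highest in replicate 1 (579.9), and *Ms4a6d* was lowest in replicate 4 (3929) but at 5389 in replicate 1. Photoreceptor markers were lowest in CNV d3 replicate 1 (518) and highest in replicate 4 (11417). The monocyte list was highest in CNV d3 replicate 3 (54365), while *Ms4a6c* (3253) and *Ms4a4c* (1686) were highest in replicate 6. The part of these cell types in the order of the samples was not tested.

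Among 9343 genes with a mean of at least 100 normalized counts and reads in every sample, the genes whose deviations were most like *Ms4a4c* were *Dck*, *Map4k2* and *Samd9l* (r = 0.95, 0.94 and 0.94 over 12 samples). For *Ms4a6c* they were *Rpl9*, *Rps7* and *Micos10* (r = 0.95, 0.94 and 0.91). For *Ms4a6b* they were *Gbp2*, *Vps26b* and *Ms4a6c* itself (r = 0.92, 0.88 and 0.86). *Ms4a6d* was most like *Taco1*, *Cutc* and *Kdelr1* (r = 0.90, 0.89 and 0.89) and *Ms4a7* most like *Cinp*, *Mettl14* and *Msl3l2* (r = 0.90, 0.88 and 0.88). The highest of 9343 values is large by choice, so that these names only describe the samples.

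Promoter windows from RefSeq, 250 bases before to 50 bases after the start on GRCm38.p6, were found for 7 of the 8 members, in 8 windows. *Ms4a6d* was not matched. The windows of *Ms4a6c* and *Ms4a6b* are shown because the genes are close copies with different changes, and that of *Ms4a4c* because it increased with *Ms4a6c*. Capitals mark AGGAAGT, the core of sites for ETS factors such as PU.1, on either strand.
Ms4a6c (chr19:11469118-11469417, plus strand): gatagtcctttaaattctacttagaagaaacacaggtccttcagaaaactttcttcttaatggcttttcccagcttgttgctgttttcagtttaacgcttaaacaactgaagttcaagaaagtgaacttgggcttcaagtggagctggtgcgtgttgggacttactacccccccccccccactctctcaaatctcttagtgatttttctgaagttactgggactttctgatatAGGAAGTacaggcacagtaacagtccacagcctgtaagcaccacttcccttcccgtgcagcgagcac
Ms4a6b (chr19:11518309-11518608, plus strand): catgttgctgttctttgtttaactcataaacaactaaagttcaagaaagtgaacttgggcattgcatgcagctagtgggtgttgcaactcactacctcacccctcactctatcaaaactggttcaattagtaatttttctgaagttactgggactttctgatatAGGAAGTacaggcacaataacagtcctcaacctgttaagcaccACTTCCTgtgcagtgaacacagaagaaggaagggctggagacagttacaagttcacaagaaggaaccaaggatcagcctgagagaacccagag
Ms4a4c (chr19:11407411-11407710, plus strand): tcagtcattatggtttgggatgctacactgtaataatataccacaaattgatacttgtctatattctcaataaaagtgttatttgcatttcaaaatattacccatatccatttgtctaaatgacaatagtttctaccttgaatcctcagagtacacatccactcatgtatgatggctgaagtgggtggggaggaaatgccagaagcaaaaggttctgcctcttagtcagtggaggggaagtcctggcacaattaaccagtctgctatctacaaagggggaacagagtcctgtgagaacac
The windows of *Ms4a6c* and *Ms4a6b* were 85.3% identical over 225 aligned bases, with a shared stretch of 48 bases that holds the AGGAAGT of *Ms4a6c*. *Ms4a6b* holds a second match on the other strand, and the window of *Ms4a4c* holds none. AGGAAGT was found in 9.35% of all 32851 windows of this length. The interferon response element (3.44% of all windows), the STAT site TTCNNNGAA (8.30%) and the E-box CACGTG (7.15%) were found in 0 of the 8 member windows. The NF-kappaB site (1.47% of all windows) was found in *Ms4a4a*, and TATAAA (13.6%) in *Ms4a14* and *Ms4a4b*. Both strands were searched, and some of these motifs can overlap each other. Matches in these letters describe the windows only.

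Of 14 further genes of the family and its relatives, 4 were in the table. *Ms4a5* and *Ms4a8a* had reads in CNV d3 replicate 2 alone. *Tmem176a* and *Tmem176b*, related membrane proteins of myeloid cells, were well expressed, at 6403 ± 601 and 14833 ± 904 normalized counts in control and 7805 ± 2230 and 15365 ± 3389 in CNV d3 (SD, n = 6). *Tmem176a* (log2FC = 0.24, adjusted p = 0.400 by limma) and *Tmem176b* (log2FC = 0.02, adjusted p = 0.913 by limma) did not pass the test.

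Among 7 genes of proteins that partner with MS4A members or shed TREM2, 0 were DEG, and the median log2FC was 0.18, beside 0.15 over all genes. Without the fold threshold, 1 fell and 2 rose. *Trem2*, the lipid receptor whose shed form is linked to the human MS4A cluster, fell from 10109 ± 998 to 6051 ± 1156 normalized counts (SD, n = 6), without overlap of the groups (log2FC = -0.76, SE 0.12, adjusted p = 0.000741 by limma). *Adam17*, a protease that sheds TREM2, rose slightly (log2FC = 0.29, adjusted p = 0.0365 by limma), as did *Syk*, the kinase behind Dectin-1 and TREM2 (log2FC = 0.29, adjusted p = 0.0466 by limma). *Clec7a* (log2FC = 0.22, adjusted p = 0.136), *Adam10* (0.18, adjusted p = 0.333), *Fcer1g* (-0.06, adjusted p = 0.618) and the adaptor *Tyrobp* (-0.20, adjusted p = 0.270 by limma) did not pass the test.

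Markers of further cell types were summed in the same samples. Those of B cells summed to 980 to 1856 normalized counts in control and 775 to 1577 in CNV d3, of mast cells and basophils to 0 to 10.1 and 0 to 12.98, and of neutrophils to 0 to 22.3 and 0 to 5.19, with 0 DEG in each. Most of the B cell sum came from *Cd79b* (means of 1315 in control and 1075 in CNV d3). The means of *Cd79a*, *Ebf1* and *Cr2* were at most 16.8 in either group. Dendritic cell markers summed to 381 to 889 in control and 690 to 3114 in CNV d3, with 6 increased DEG among 10 genes. NK cell markers summed to 0 to 22.1 and 0.866 to 232, with *Klrk1* as the increased DEG. Photoreceptor markers reached 6284 in control and 11417 in CNV d3 with 0 DEG, and those of Muller glia were at 6803 to 9780 and 5132 to 7526, with *Dkk3* as the increased DEG. Most of the Muller glia sum came from *Glul* (means of 5723 in control and 4734 in CNV d3) and *Slc1a3* (2117 and 1358). The other Muller glia genes had means of at most 85.1 in either group. The part of these cells in the MS4A values was not tested.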

How the data were processed

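Retinal microglia sorted by flow cytometry were measured by bulk RNA-seq in 6 control and 6 CNV d3 samples, grouped and numbered by the labels. The labels hold 19 entries for these 12 samples, since each control sample and CNV d3 replicate 4 appear in 2 parts, and each was counted once. Among CNV d3 samples, only replicate 4 was in 2 parts, so that the split into parts and the laser treatment can hardly be told apart. *Ms4a6c* (1715) and *Ms4a4c* (869.0) of replicate 4 were above all controls and, with replicate 1, the lowest of CNV d3. The part of this split in the results was not tested. Per the submitters' processing notes and the methods of the study, the authors mapped 50-cycle single reads with STAR 2.7.2b to GRCm38.p6 with Gencode annotation, merged the alignments by sample, ran featureCounts 1.6.4 at default settings, without strand, to obtain a count per gene, and left out genes with 0 reads. The deposited signal of a gene is its count divided by the DESeq2 1.22.2 size factor of the sample, called normalized counts. The deposited fold changes, p-values and group means of the authors were not used.

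The analysis plan had foreseen counts. As the values were not counts, limma 3.58.1 in R 4.3.3 was run on the log2 scale with a pseudocount of 1, across the 27299 genes, with a variance trend, no filter and Benjamini-Hochberg adjustment. All values were whole multiples of 1 read (within 0.01 reads), so edgeR 4.0.16 and DESeq2 1.42.0 were run on the recovered reads as alternatives. Other alternatives were other pseudocounts, a filter on low values, equal totals, TMM scaling, the replicate number as a block and leaving out each sample. The steps were tested on simulated data. Ratios of members were compared by exact permutation of the samples. As libraries were amplified by PCR and carried no molecular identifiers, the floor of 3 reads covers counting error only.

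Positions, exons and coding sequences came from Gencode on GRCm38, in a release other than the one the authors used. The members and lists were chosen with earlier results of these data known. All 8 members were named, with the other family and partner genes that were DEG or had a mean of at least 100 normalized counts in a group, and the 3 genes most like each member with a mean of at least 100.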

Additional observations from a re-analysis of the deposited data

Results flagged for a closer look

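In 16 sets of a member and a group, a sample was looked for whose gap to the nearest other sample took up most of the range of its group on log2(normalized counts + 1). Of these sets, 4 were marked. The rule was meant to mark about 1 in 20 sets by chance, but this rate was not shown for genes near 0. Where all other samples are at 0, as for *Ms4a14* in control, the gap is the whole range by construction. The 4 marks were thus not compared with that rate. *Ms4a4a* was at 0 in control replicate 5, while the other controls had 29.8 to 198.9 normalized counts. *Ms4a4a* was also low in CNV d3 replicate 4 (22.5), where the other samples had 86.8 to 132.1. *Ms4a6d* was low in the same CNV d3 replicate 4 (3929), beside 4845 to 5406 in the others. *Ms4a14* had 81.4 normalized counts in control replicate 6 and 0 in the other controls. CNV d3 replicate 4 is the only CNV d3 sample listed in 2 parts.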

How the results depend on the processing

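Wherever a value was given, the members kept their side of the thresholds under other pseudocounts, the filter, equal totals, TMM scaling, edgeR, DESeq2 and the replicate block, and DESeq2 gave no adjusted p for *Ms4a14*. The direction turned only for *Ms4a4b* (log2FC = -1.15 by edgeR, -1.17 by DESeq2), *Ms4a14* (-0.84 by edgeR, -0.88 by DESeq2) and *Ms4a7* (0.025 with equal totals, 0.014 with TMM), none of which passed the test. The cause was not tested. *Ms4a4b* and *Ms4a14* could not be given a value under the filter.

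With single samples left out, the log2FC was 0.32 to 1.85 for *Ms4a4a*, 0.74 to 2.10 for *Ms4a4b*, 1.46 to 1.94 for *Ms4a4c*, 0.03 to 0.19 for *Ms4a6b*, 1.32 to 1.54 for *Ms4a6c*, 0.06 to 0.20 for *Ms4a6d*, -0.30 to 0.20 for *Ms4a7* and -0.13 to 1.64 for *Ms4a14*. Increased DEG among the members were 0 without control replicate 2 and 2 without control replicate 3, CNV d3 replicate 1 or CNV d3 replicate 4, and between 0 and 2 in all fits. Over all genes, 829 to 1041 increased and 237 to 358 decreased DEG were found. The difference in log2 ratio was -1.35 to -1.23 for *Ms4a6b* to *Ms4a6c*, 1.2201 to 1.41 for *Ms4a6c* to *Ms4a6d*, -0.088 to 0.066 for *Ms4a6b* to *Ms4a6d*, -0.78 to 1.11 for *Ms4a4a* to *Ms4a4b*, -1.47 to 0.054 for *Ms4a4a* to *Ms4a4c* and -1.11 to 0.35 for *Ms4a4b* to *Ms4a4c*. With a pseudocount of 0.5, that of *Ms4a4a* to *Ms4a4b* was -0.20. Increased DEG were 1 to 3 in the border macrophage list, 4 to 7 in the monocyte list, 4 to 6 in the dendritic cell list and 0 to 1 in the photoreceptor list.

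DESeq2 called 572 decreased DEG over all genes, where limma called 293. In the lists, edgeR called 1 increased border macrophage gene in place of 3 and 0 Muller glia genes in place of 1, DESeq2 called 1 decreased border macrophage gene in place of 0, the filter left 0 NK cell genes in place of 1, and 1 photoreceptor gene in place of 0 increased under the filter, edgeR, DESeq2 and the replicate block. Same-numbered samples of the 2 groups did not deviate together (r = -0.053 to 0.071 over 9713 genes). For 1 of the 6 numbers, both samples were most like each other. Such correlations cannot show whether same-numbered samples were handled together. With the replicate block, *Ms4a4c* (log2FC = 1.73, adjusted p = 0.0167 by limma) and *Ms4a6c* (1.41, adjusted p = 0.00309 by limma) stayed called, and over all genes 921 increased and 215 decreased DEG were found. *Ms4a4a*, *Ms4a4b* and *Ms4a14* rest on 0 to 196 reads per sample, which limits their precision.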
